A study of Mus musculus with 54 samples.

Results

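Libraries from semaglutide-treated and from dapagliflozin-treated diabetic mice of wild-type Sglt1 were compared with each other, gene by gene, in the S3 segment of the kidney, the last stretch of the proximal tubule. The groups were taken by the genotype label Sglt1 WT/Akita and the treatment label alone, and they held 10 of the 52 libraries with expression values, 5 per drug. All animals were male DBA mice of 14 weeks with 1 Akita copy of the insulin gene Ins2 (Ins2 Akita/+), which makes them diabetic, and with both copies of Sglt1 intact (Sglt1+/+). They received semaglutide (3 nmol per kg body weight per day, by injection under the skin), dapagliflozin (10 mg per kg of diet) or vehicle for 2 weeks. The 6 vehicle libraries of the same genotype (Ins2 Akita/+, Sglt1+/+) are given after the drugs as a common background. The drugs were given by different routes and at 1 dose each, so the comparison is between these regimens and not between matched doses. Tubules that bound the lectin LTL and lacked SGLT2 were cut out with a laser, 70 to 80 in each sample, and their total RNA was sequenced.

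Dapagliflozin inhibits SGLT2, the sodium-glucose carrier that takes up most filtered glucose in the early proximal tubule (the S1 and S2 segments). Glucose that escapes that carrier reaches the S3 segment, where SGLT1 (Slc5a1) takes it up. Semaglutide activates the GLP-1 receptor, best known for raising insulin secretion when glucose is high and for lowering food intake. The S3 segment takes up fructose and glucose, makes glucose, oxidises fatty acids and is sensitive to injury. Glp1r itself was not analysed here.

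Of 6 samples per drug in the labels, semaglutide replicate 1 and dapagliflozin replicate 2 have no column in the table, whose title says that outliers were left out. The semaglutide libraries below are therefore replicates 2, 3, 4, 5 and 6 and the dapagliflozin libraries replicates 1, 3, 4, 5 and 6, always in that order. Library numbers in the labels run from 88 to 99 for the semaglutide libraries used and from 17 to 78 for the dapagliflozin libraries, with no overlap, so drug and whatever that number records cannot be told apart. Nothing in the labels says that each sample came from its own animal, so p-values rest on the spread between samples. In the gene tests that spread was shared over all 9 groups of the series. Expression is in TPM, a level per library that takes gene length into account, and read totals are unknown. Differences are semaglutide minus dapagliflozin on the log2(TPM + 1) scale, which understates the change of low genes.

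No gene separated semaglutide from dapagliflozin after correction for the number of genes tested. In limma with Benjamini-Hochberg adjustment over 15424 genes, 0 genes (0%) had an adjusted p under 0.05 in either direction, and the smallest adjusted p was 0.764. At an unadjusted p under 0.05 there were 543 genes (3.52%), of which 246 (1.59%) were higher with semaglutide and 297 (1.93%) lower. An even spread of p-values would put 771.2 genes in that range. The 5 libraries of one drug lay wholly above or below the 5 of the other in 111 genes (0.720%), 58 with semaglutide above (0.376%) and 53 with semaglutide below (0.344%).

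The 95% intervals show what size of difference remained possible. The median interval reached 0.55 to each side of the estimate, and 0.44 for the 8857 genes with a mean of 10 TPM or more. For 11166 genes (72.4%) the whole interval lay between log2 -1 and 1. In the other genes it reached past log2 -1 or 1. The median difference over all tested genes was -0.01, with 7381 genes above 0 and 8040 below. The same fit called 0 genes (0%) for semaglutide against vehicle, with 800 at an unadjusted p under 0.05 (5.19%) and a smallest adjusted p of 0.109. For dapagliflozin against vehicle it called 0 genes (0%), with 368 at an unadjusted p under 0.05 (2.39%) and a smallest adjusted p of 0.325. These contrasts share the vehicle libraries.

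**Figure D1:**
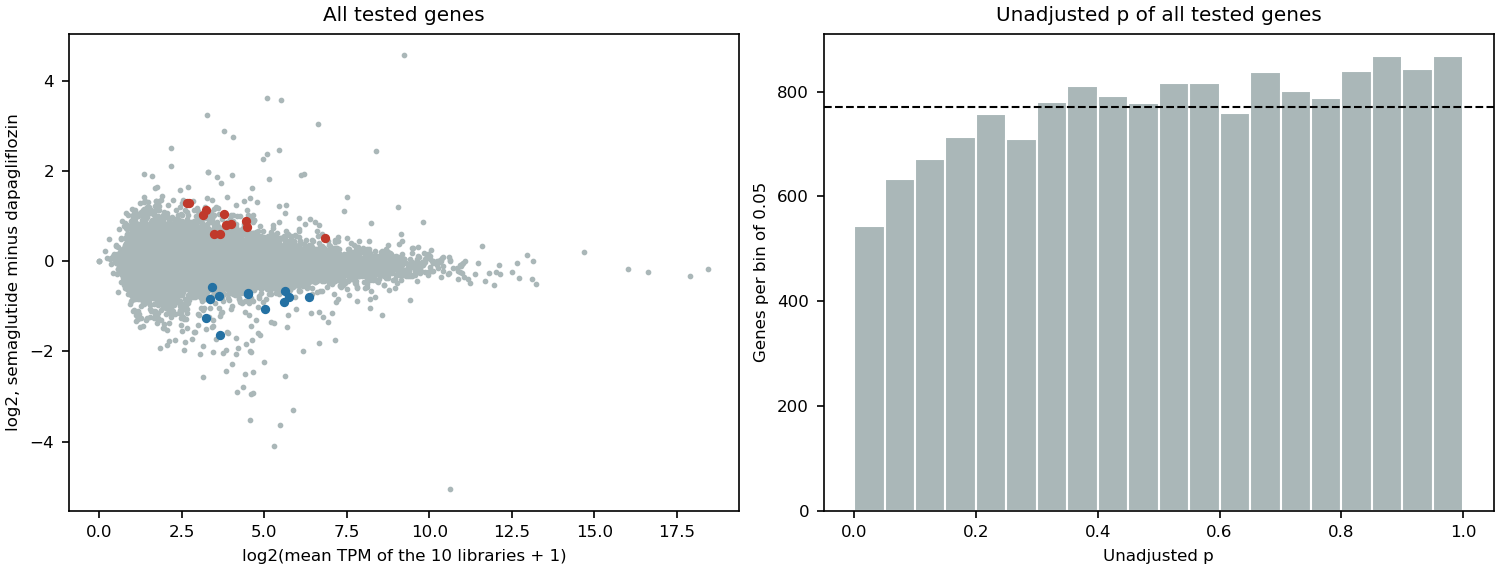
Left, each grey point is 1 of the 15424 tested genes, with the mean level of the 10 libraries as log2(TPM + 1) on the horizontal axis and the log2 difference, semaglutide minus dapagliflozin, on the vertical axis. The 12 named genes with higher values under semaglutide are red and the 12 with lower values blue. Right, the number of genes in each 0.05 wide bin of the unadjusted p, where the dashed line marks 771.2 genes and the lowest bin holds 543.

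Libraries of different drugs were about as alike as libraries of the same drug. The median correlation of log2 values was 0.928 within semaglutide and 0.934 within dapagliflozin, against 0.928 between the drugs. Per gene, the median SD of log2 values was 0.354 in both drug groups. Mitochondrial ribosomal RNA took 36.3 ± 12.5% of TPM with semaglutide and 38.1 ± 6.15% with dapagliflozin (SD, n = 5 each), and an exact two-sided permutation test gave p = 0.778 (Benjamini-Hochberg 0.849 over 4 measures). The sum of TPM, above the nominal total of that unit in all 10 libraries, was 1513150 ± 449384 with semaglutide and 1603190 ± 304880 with dapagliflozin (SD, n = 5 each, exact permutation p = 0.690).

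**Figure D2:**
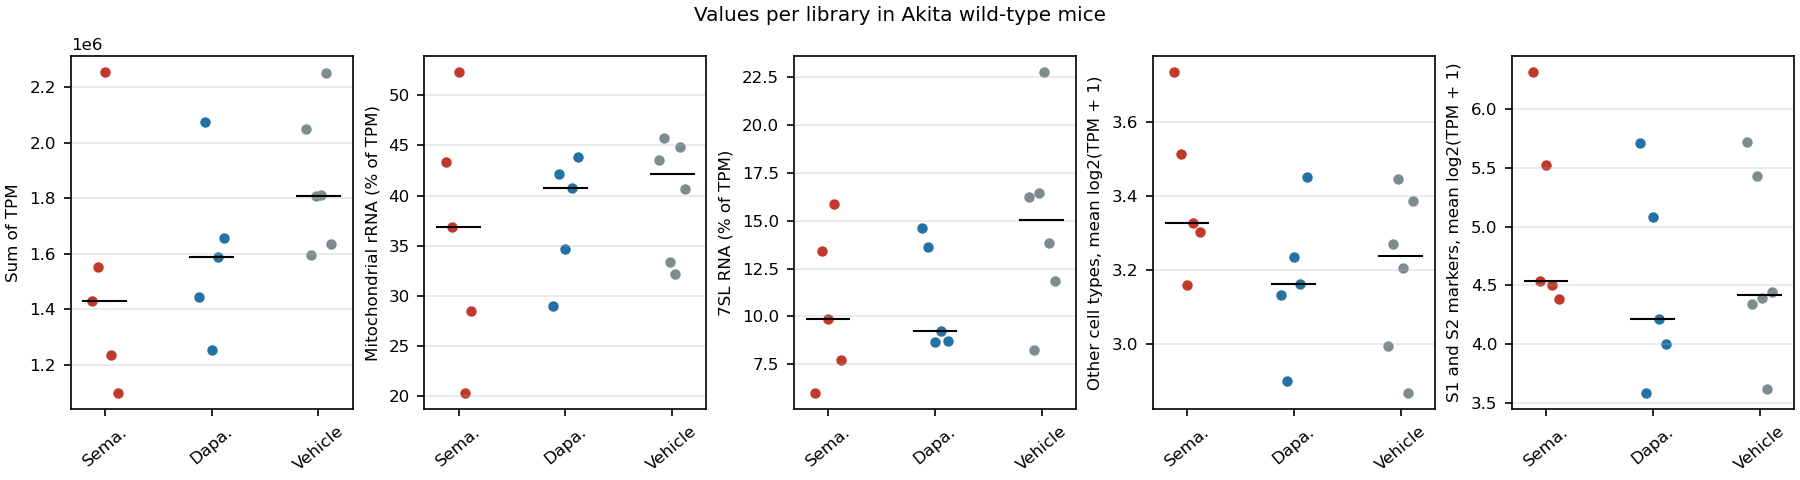
Each point is 1 library of Akita wild-type mice, semaglutide (Sema., red), dapagliflozin (Dapa., blue) or vehicle (grey), and bars are medians. The panels show the summed TPM, the percent of TPM from mitochondrial rRNA and from 7SL RNA, and the mean log2(TPM + 1) of markers of other cell types and of the S1 and S2 segments. Semaglutide and dapagliflozin libraries overlapped in all 5 panels.

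None of the glucose carriers separated the groups. Slc5a1, which encodes SGLT1 (ENSMUSG00000011034, chromosome 5, 33104219 to 33162870, GRCm38), had 64.7, 57.9, 65.2, 68.7 and 60.4 TPM in semaglutide libraries, against 70.7, 84.6, 42.8, 83.1 and 85.5 TPM in dapagliflozin libraries. Its log2 difference was -0.17 (95% interval -0.61 to 0.27), and vehicle libraries spanned 65.7 to 103 TPM. The semaglutide values were packed within 57.9 to 68.7 TPM, while the dapagliflozin values reached both below and above them, the lowest being replicate 4. Slc5a2, which encodes SGLT2 and should be low in tubules chosen to lack it, had 205, 16.1, 78.6, 15.4 and 20.4 TPM with semaglutide, against 53.96, 3.93, 70.9, 14.7 and 6.94 TPM with dapagliflozin. Semaglutide replicates 2 and 4 and dapagliflozin replicates 1 and 4 carried the high values, and the groups overlapped (log2 difference 1.07, 95% interval -0.84 to 2.98). The mean of 15 markers of the S1 and S2 segments was highest in those same libraries of each group, at 6.32 and 5.53 on the log2(TPM + 1) scale in semaglutide replicates 2 and 4 and at 5.71 and 5.09 in dapagliflozin replicates 1 and 4. Slc5a2 is itself 1 of those 15 markers. In bulk RNA, fewer cells of a type and less RNA per cell cannot be told apart.

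Slc2a2, the basolateral glucose carrier GLUT2, averaged 22.4 ± 15.97 TPM with semaglutide and 25.3 ± 8.67 TPM with dapagliflozin (SD, n = 5 each), with a log2 difference of -0.39 (95% interval -1.09 to 0.31). The difference of Slc2a2 was -0.62 with the S1 and S2 mean as a covariate (unadjusted p = 0.0266 in limma). With library number as a covariate it was -0.28 (unadjusted p = 0.451 in limma). For Slc2a1 (GLUT1) the means were 17.7 ± 4.58 TPM with semaglutide and 13.8 ± 1.90 TPM with dapagliflozin, with a log2 difference of 0.31 (95% interval -0.12 to 0.74). Slc9a3, the sodium-proton exchanger NHE3 of the apical membrane, averaged 28.1 ± 4.89 TPM with semaglutide and 19.9 ± 9.27 TPM with dapagliflozin, and its log2 difference of 0.58 was 0.20 with the S1 and S2 mean as a covariate and 0.94 with library number as a covariate. Of 14 glucose transporter genes tested, 7 lay above 0 and 7 below, with a median of -0.01 that was -0.18 without semaglutide replicate 2. On the lower side 3 of the 14, Slc5a10, Slc2a5 and the inositol carrier Slc5a11, were at an unadjusted p under 0.05, against 1.93% of all genes, and 0 were called.

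Genes for fructose uptake and breakdown had lower values with semaglutide than with dapagliflozin, without passing the test. All 11 members of the polyol and fructose list lay below 0 with a median of -0.40, against -0.01 over all genes, and 0 were called. The median was -0.21 without dapagliflozin replicate 5. At an unadjusted p under 0.05 there were 3 members, against 1.93% of all genes on that side. Slc5a10, a sodium-dependent carrier of mannose and fructose at the apical membrane (ENSMUSG00000042371, chromosome 11, 61672781 to 61720826, GRCm38) that was listed with the glucose transporters, had 881, 322, 816, 334 and 277 TPM with semaglutide, against 859, 799, 675, 1037 and 875 TPM with dapagliflozin (log2 difference -0.86, 95% interval -1.46 to -0.25, adjusted p = 1). Semaglutide replicates 3, 5 and 6 lay below every dapagliflozin library, whereas replicates 2 and 4 lay among them. Vehicle libraries spanned 849 to 1254 TPM.

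The fructose carrier GLUT5, encoded by Slc2a5 (ENSMUSG00000028976, chromosome 4, 150119283 to 150144169, GRCm38), had 391, 147, 335, 155 and 189 TPM with semaglutide, against 337, 562, 240.4, 496 and 391.97 TPM with dapagliflozin (log2 difference -0.79, 95% interval -1.57 to -0.01). Khk, ketohexokinase, carries out the entry step of fructose breakdown (ENSMUSG00000029162, chromosome 5, 30921431 to 30931248, GRCm38), and had 407, 262, 565, 266 and 243 TPM with semaglutide, against 458, 647, 367, 656 and 494 TPM with dapagliflozin (log2 difference -0.63, 95% interval -1.13 to -0.14). In both genes replicates 3, 5 and 6 were again the low semaglutide libraries and lay below all 5 dapagliflozin libraries. Tkfc, triokinase, which acts further down the same route, averaged 296 ± 64.5 TPM with semaglutide and 402 ± 57.1 TPM with dapagliflozin (SD, n = 5 each, log2 difference -0.46). Sord, sorbitol dehydrogenase, stood at -0.02. Adjusted p was 1 for Slc2a5, Khk and Tkfc.

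Against vehicle, Slc5a10, Slc2a5 and Khk stood below 0 with both drugs. The polyol and fructose list as a whole had a median of -0.13 with semaglutide and -0.11 with dapagliflozin. The log2 differences from vehicle were -1.17 with semaglutide and -0.32 with dapagliflozin for Slc5a10. Those of Slc2a5 were -1.23 with semaglutide and -0.44 with dapagliflozin, and those of Khk -0.88 with semaglutide and -0.25 with dapagliflozin. Both sets of differences rest on the same 6 vehicle libraries, and none passed the test. Gpd2, the mitochondrial glycerol 3-phosphate dehydrogenase (ENSMUSG00000026827, chromosome 2, 57237635 to 57370719, GRCm38), had 110.0, 55.2, 69.7, 34.4 and 39.8 TPM with semaglutide, against 109, 89.2, 69.3, 118 and 122 TPM with dapagliflozin (log2 difference -0.80, 95% interval -1.33 to -0.27, adjusted p = 1). Vehicle libraries had 98.2 to 165 TPM. Its highest semaglutide library, replicate 2, lay within the dapagliflozin range, and replicates 3, 5 and 6 lay below it.

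**Figure D3:**
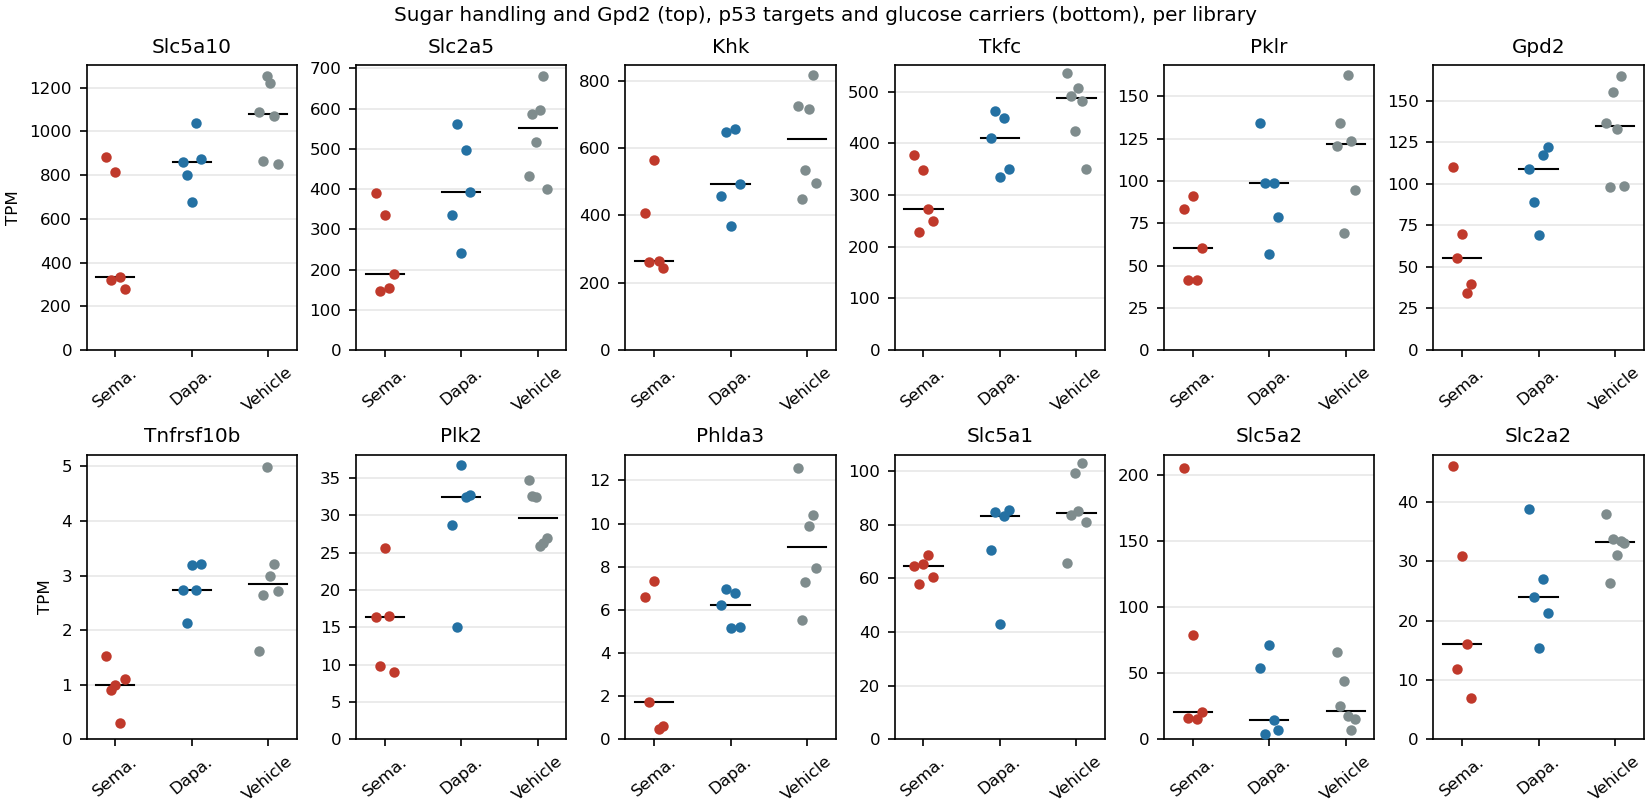
Each point is 1 library of Akita wild-type mice, with TPM on a linear axis from 0, semaglutide (Sema., red), dapagliflozin (Dapa., blue) and vehicle (grey) from left to right, and bars at the medians. For Slc5a10, Slc2a5 and Khk, 3 semaglutide libraries lay below all dapagliflozin libraries and the other 2 among them. For Tnfrsf10b all 5 semaglutide libraries lay below all 5 dapagliflozin libraries.

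Enzymes of glycolysis and mitochondrial energy metabolism leaned the same way with small differences. In the glycolysis list 1 of 15 tested members lay above 0 and 14 below, with a median of -0.19 that was -0.12 without semaglutide replicate 3. Eno1, an enolase gene with a close copy, Eno1b, that can share its reads, had 326, 228, 321, 250.2 and 213 TPM with semaglutide, against 369, 365, 292, 411 and 341 TPM with dapagliflozin (log2 difference -0.42, 95% interval -0.76 to -0.09), with an overlap of the groups. The citric acid cycle list had 2 of 19 above 0 and 17 below (median -0.16, with -0.09 without dapagliflozin replicate 3 and -0.26 without dapagliflozin replicate 4), and all 31 nuclear-encoded subunits of the respiratory chain lay below 0 (median -0.26). Cyc1, cytochrome c1, averaged 144 ± 32.1 TPM with semaglutide and 204 ± 48.3 TPM with dapagliflozin (SD, n = 5 each, log2 difference -0.49, 95% interval -0.90 to -0.07). Of all genes, 52.1% lay below 0. The respiratory chain median was -0.42 without dapagliflozin replicate 4 and -0.12 without dapagliflozin replicate 3. Members of these lists share libraries and vary together, so their number is no number of independent observations.

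Glucose production did not lean either way. Of 17 gluconeogenesis genes, 9 lay above 0 and 8 below (median 0.02). Pck1, which commits oxaloacetate to glucose synthesis, averaged 1166 ± 484 TPM with semaglutide and 1437 ± 493 TPM with dapagliflozin (SD, n = 5 each, log2 difference -0.34, 95% interval -1.02 to 0.34). G6pc, which releases free glucose, averaged 39.3 TPM with semaglutide and 29.4 TPM with dapagliflozin. Fatty acid oxidation genes had 6 of 25 above 0 and 19 below (median -0.13). Leaving out single libraries moved that median between -0.23, without semaglutide replicate 5, and -0.07, without semaglutide replicate 6. In the list of GLP-1 receptor and cAMP signalling genes, 12 of 19 lay above 0 and 7 below with a median of 0.04, and none reached an unadjusted p under 0.05.

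Genes induced by the tumour suppressor p53 also had lower values with semaglutide. Of 16 tested p53 targets, 2 lay above 0 and 14 below, with a median of -0.27 and 0 called, and 4 were at an unadjusted p under 0.05 against 1.93% of all genes. Tnfrsf10b, a death receptor that binds TRAIL (ENSMUSG00000022074, chromosome 14, 69767472 to 69784411, GRCm38), had 1.52, 0.901, 0.999, 0.296 and 1.10 TPM with semaglutide, against 2.73, 2.13, 3.19, 2.73 and 3.21 TPM with dapagliflozin. The groups did not overlap, and the log2 difference was -0.98 (95% interval -1.45 to -0.50, adjusted p = 0.764). Vehicle libraries had 1.62, 2.65, 4.99, 2.99, 3.22 and 2.72 TPM, and all 6 lay above the semaglutide libraries. These levels are low, near or under the minimum mean of 1 TPM in the semaglutide group.

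Plk2, a stress-induced kinase (ENSMUSG00000021701, chromosome 13, 110395046 to 110400844, GRCm38), had 16.4, 9.83, 25.6, 16.6 and 8.995 TPM with semaglutide, against 28.6, 14.98, 36.7, 32.4 and 32.7 TPM with dapagliflozin (log2 difference -0.90, 95% interval -1.54 to -0.27). Its dapagliflozin replicate 3 stood far below the other 4 and within the semaglutide range. Phlda3, an inhibitor of AKT signalling (ENSMUSG00000041801, chromosome 1, 135766119 to 135769136, GRCm38), had 6.58, 1.75, 7.35, 0.488 and 0.603 TPM with semaglutide, against 6.22, 6.98, 5.16, 6.77 and 5.20 TPM with dapagliflozin (log2 difference -1.07, 95% interval -1.93 to -0.21). Semaglutide replicates 2 and 4 were as high as the dapagliflozin libraries, and replicates 3, 5 and 6 were below all of them. Other canonical targets differed less, with log2 differences of -0.24 for the cell cycle inhibitor Cdkn1a, -0.29 for Mdm2, which degrades p53, and -0.15 for the cell death gene Bax. Both Plk2 and Phlda3 had an adjusted p of 1.

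Cell cycle genes lay mostly below 0. Of 15 tested cell cycle genes, 3 lay above 0 and 12 below (median -0.28, and -0.12 without dapagliflozin replicate 1). Rrm2, a subunit of ribonucleotide reductase that supplies DNA building blocks, had 1.58, 0.135, 0.188, 0 and 0 TPM with semaglutide, against 4.07, 1.15, 1.91, 2.37 and 3.85 TPM with dapagliflozin (log2 difference -1.44, 95% interval -2.33 to -0.56, adjusted p = 1). It was at 0, which is how blank cells were taken, in semaglutide replicates 5 and 6, and replicate 2 lay within the dapagliflozin range. The proliferation marker Mki67 averaged 1.91 TPM with semaglutide and 4.17 TPM with dapagliflozin.

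Stress response lists gave mixed pictures. All 13 heat shock genes lay below 0 (median -0.33), but dapagliflozin replicate 3 stood apart, with Hspa1b, an inducible HSP70 that can share reads with its near-identical copy Hspa1a, at 9.08, 13.8, 4.95, 12.1 and 8.92 TPM with semaglutide, against 11.5, 250.2, 14.8, 17.8 and 11.8 TPM with dapagliflozin. Without that library the median was -0.13, and without dapagliflozin replicate 4 it was -0.50. Targets of the oxidative stress factor NRF2 had 3 of 23 above 0 and 20 below (median -0.22). Hmox1, heme oxygenase, had 5.12, 4.52, 9.37, 5.05 and 3.43 TPM with semaglutide, against 14.8, 14.4, 6.64, 15.1 and 4.67 TPM with dapagliflozin (log2 difference -0.83, 95% interval -1.53 to -0.14), and overlapped. The integrated stress and unfolded protein response had 11 of 19 above 0 and 8 below (median 0.01). Mthfd2, a mitochondrial folate enzyme in that list, had 2.46, 1.28, 1.39, 0 and 0.610 TPM with semaglutide, against 4.03, 2.62, 6.01, 5.79 and 2.30 TPM with dapagliflozin (log2 difference -1.31, adjusted p = 1). Interferon and MHC class I genes leaned the other way, with 25 of 27 above 0, 0 called and 1, Bst2, which tethers virus particles to cells, at an unadjusted p under 0.05. Their median of 0.20 was 0.11 without dapagliflozin replicate 5 and 0.31 without semaglutide replicate 5.

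**Figure D4:**
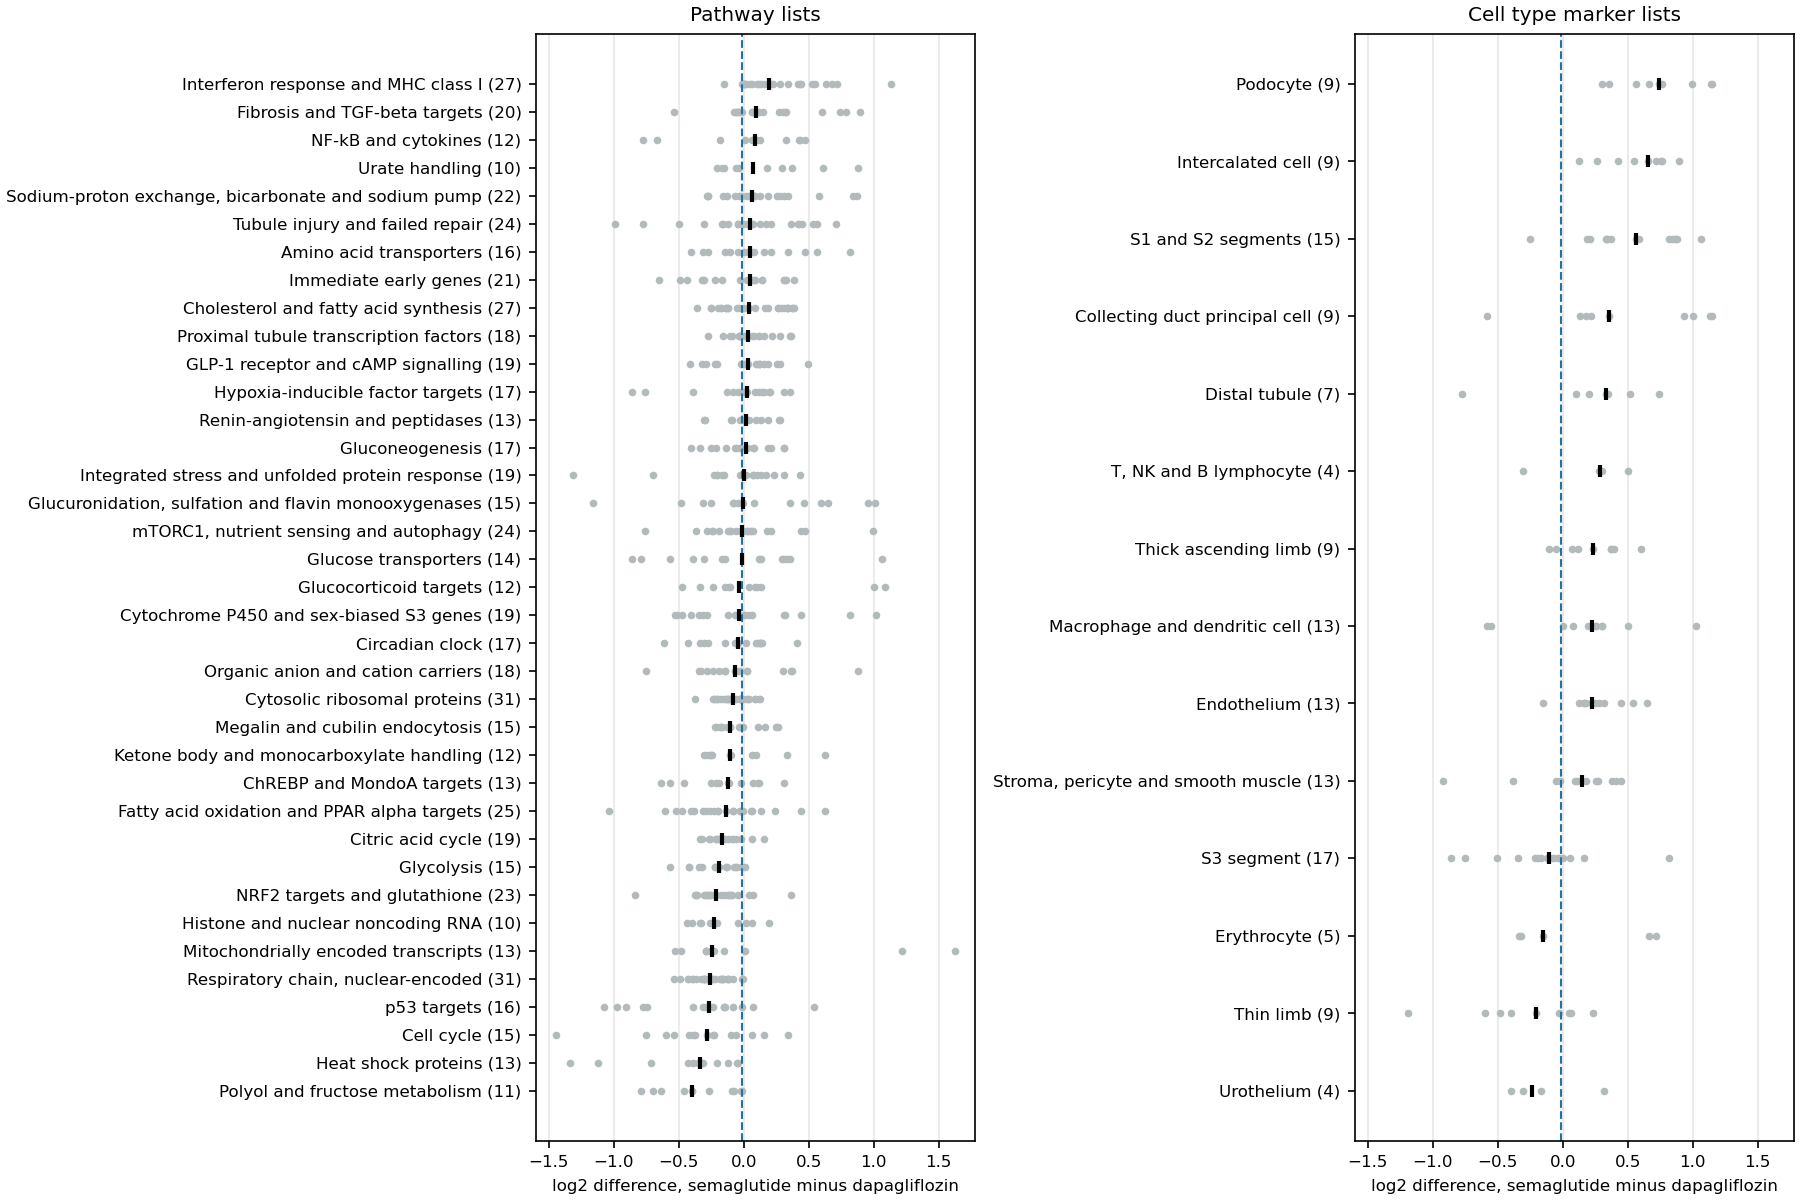
Each row is a gene list with its number of tested members in brackets, pathways on the left and cell type markers on the right. Grey points are the members' log2 differences, semaglutide minus dapagliflozin, black bars the list medians, and the dashed line the median of all tested genes (-0.01). The respiratory chain, polyol and fructose and heat shock lists lie wholly below 0, and the podocyte and intercalated cell markers wholly above it.

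Of the 12 genes named for higher values with semaglutide, 5 had groups that did not overlap, against 0.376% of all genes, and none passed the test. The naming rule took genes by the smallest p, which favours groups without overlap. Gpc3, a glypican, which is a heparan sulfate proteoglycan of the cell surface (ENSMUSG00000055653, chromosome X, 52272426 to 52613950, GRCm38), had 8.83, 6.96, 3.34, 13.3 and 10.4 TPM with semaglutide, against 3.32, 2.82, 2.16, 2.30 and 2.55 TPM with dapagliflozin. Its log2 difference was 1.30 (95% interval 0.67 to 1.93, adjusted p = 0.764), and only semaglutide replicate 4 came near the dapagliflozin range. Vehicle libraries, at 2.79 to 8.84 TPM, overlapped both groups. Bcl3, a nuclear partner of NF-kB, had 5.23, 7.68, 11.3, 12.9 and 3.72 TPM with semaglutide, against 2.59, 1.30, 2.16, 3.27 and 3.34 TPM with dapagliflozin (log2 difference 1.30, 95% interval 0.51 to 2.09). The lowest semaglutide library exceeded the highest dapagliflozin library by a small margin.

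Smad7, the inhibitory SMAD that restrains TGF-beta signalling, had 19.01, 26.7, 31.98, 25.7 and 35.3 TPM with semaglutide, against 11.7, 18.8, 15.5, 12.7 and 13.1 TPM with dapagliflozin (log2 difference 0.89, 95% interval 0.30 to 1.49). Only a narrow gap separated the groups, and the vehicle values of 11.6 to 40.4 TPM covered both. In the fibrosis and TGF-beta list that holds it, 12 of 20 members lay above 0 and 8 below (median 0.09). Id3, a target of BMP signalling in the same list, averaged 17.3 ± 4.85 TPM with semaglutide and 9.48 ± 2.04 TPM with dapagliflozin (SD, n = 5 each, log2 difference 0.78, 95% interval 0.19 to 1.38). Collagen genes in the list stood close to 0, at -0.05 for Col3a1 and -0.01 for Col4a1.

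Cdk5rap2, a centrosome protein, had 30.4, 30.4, 15.7, 29.5 and 30.7 TPM with semaglutide, against 14.8, 16.95, 16.1, 15.8 and 13.3 TPM with dapagliflozin and 18.2, 18.8, 17.3, 17.2, 18.7 and 16.5 TPM with vehicle (log2 difference 0.76, 95% interval 0.36 to 1.16). In 4 of 5 semaglutide libraries it stood well above every dapagliflozin and vehicle library, and replicate 4 lay within the dapagliflozin range. Fgd1, an exchange factor for the GTPase Cdc42, had 10.2, 13.3, 13.7, 10.9 and 13.5 TPM with semaglutide, against 6.20, 8.78, 7.98, 8.13 and 7.87 TPM with dapagliflozin, with no overlap (log2 difference 0.60). Fam89b was the remaining gene without overlap, at 8.49 to 13.2 TPM with semaglutide and 1.64 to 7.63 TPM with dapagliflozin. Donson, a replication fork protein, Trim21, a ubiquitin ligase that binds antibodies in the cytosol, and Gtdc1 had log2 differences of 1.13, 1.05 and 0.83. Rnf141, Gimap4, a GTPase of lymphocytes, and Flrt1, a leucine-rich membrane protein, stood at 0.80, 0.60 and 0.51. All of these except Gpc3 had an adjusted p of 1.

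Of the 12 genes named for lower values with semaglutide, 6 had groups that did not overlap, against 0.344% of all genes and under the same rule, and the adjusted p of all 12 was 1. Hs6st2, which adds sulfate to heparan sulfate chains (ENSMUSG00000062184, chromosome X, 51387212 to 51681856, GRCm38), had 16.2, 14.2, 30.6, 21.7 and 18.6 TPM with semaglutide, against 32.4, 38.9, 37.8, 63.4 and 43.6 TPM with dapagliflozin (log2 difference -1.07, 95% interval -1.80 to -0.34). Vehicle libraries had 33.3 to 48.2 TPM and so lay within the dapagliflozin range, above all semaglutide libraries. Fam124a had 3.22, 3.34, 12.3, 4.94 and 3.799 TPM with semaglutide, against 27.5, 12.9, 16.4, 18.9 and 13.5 TPM with dapagliflozin (log2 difference -1.63, 95% interval -2.59 to -0.67). The vehicle libraries, at 2.53 to 11.5 TPM, also lay below the dapagliflozin range. Tmem11, a mitochondrial membrane protein, had 6.24, 7.68, 11.6, 8.63 and 7.30 TPM with semaglutide, against 15.3, 15.4, 12.8, 17.02 and 12.6 TPM with dapagliflozin (log2 difference -0.77, 95% interval -1.19 to -0.34), with vehicle values that overlapped both.

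Mpped1, a metallophosphoesterase, Vps9d1, a protein with a Rab-activating domain, and Llgl1, a cell polarity protein, were the other genes without overlap. Mpped1 spanned 19.8 to 43.4 TPM with semaglutide and 52.8 to 74.2 TPM with dapagliflozin. The ranges of Vps9d1 were 29.6 to 46.3 TPM with semaglutide and 55.3 to 100.9 TPM with dapagliflozin, and those of Llgl1 6.27 to 9.29 TPM with semaglutide and 9.60 to 15.2 TPM with dapagliflozin. Banf1, a protein that binds DNA at the nuclear envelope, had the log2 difference -1.25, and its groups met only through dapagliflozin replicate 6. Gpn2, a GTPase, stood at -0.83, Arl4a, a small GTPase, at -0.72, Zdhhc7, a palmitoyltransferase, at -0.70, and Mtx1, which takes part in import of mitochondrial proteins, at -0.65. Together with Gpd2 these make up the 12.

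**Figure D5:**
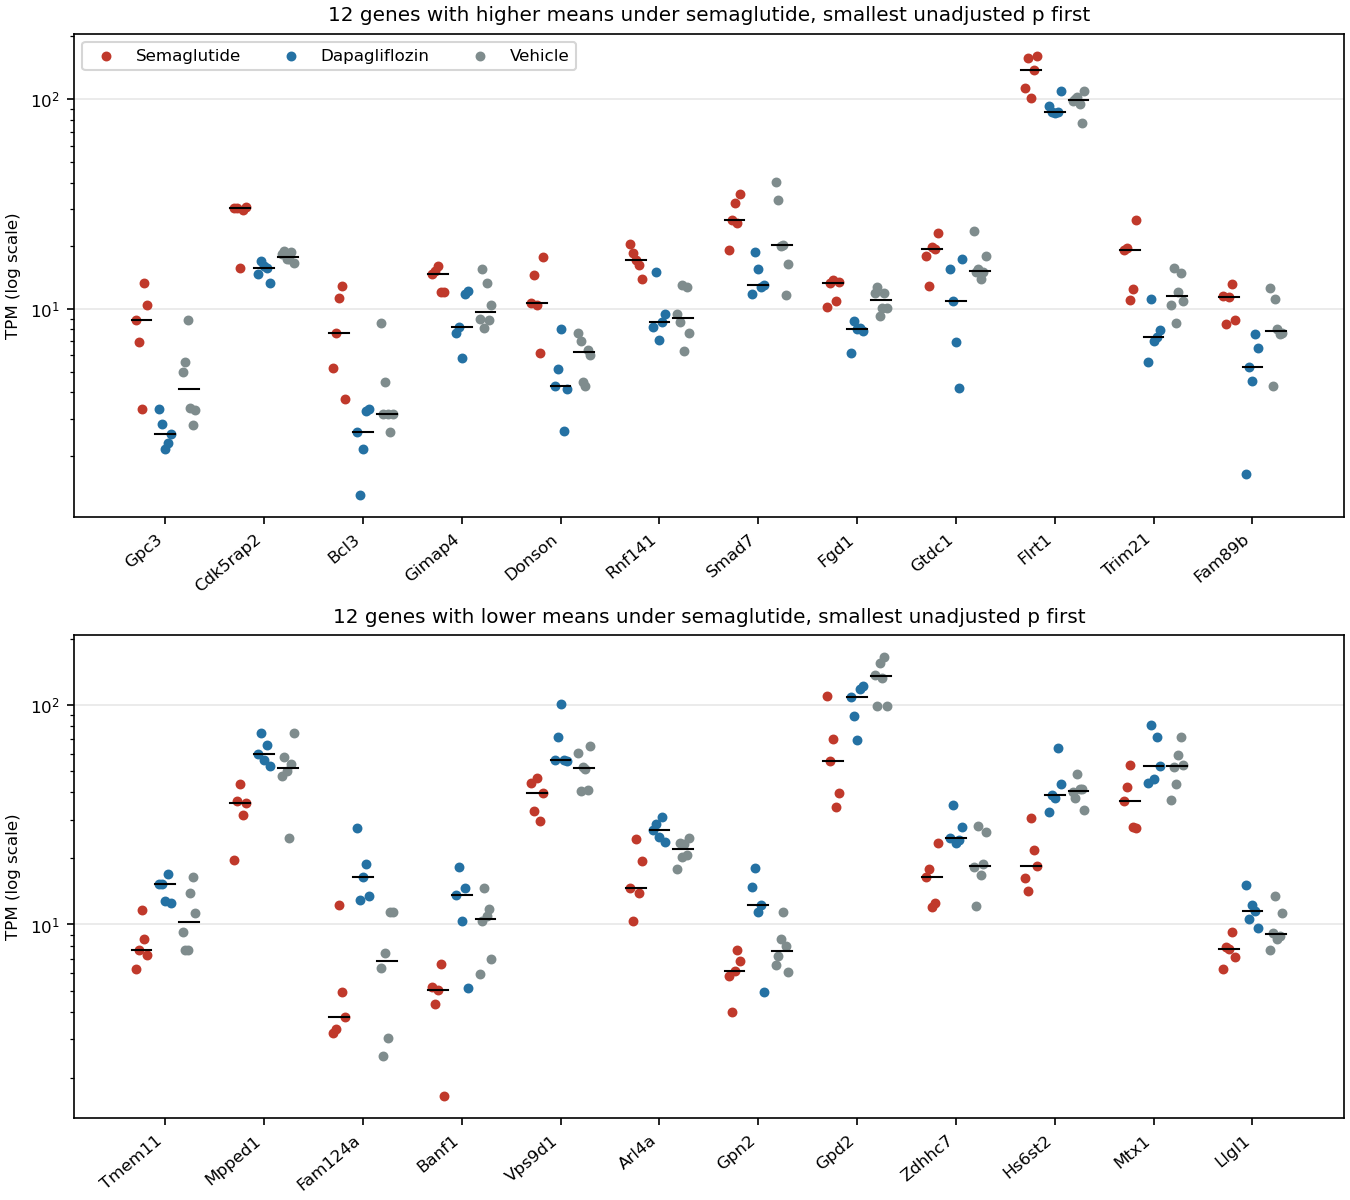
TPM on a log axis for the 24 genes named by rule, higher under semaglutide in the upper panel and lower in the lower one. Each point is 1 library, semaglutide in red, dapagliflozin in blue and vehicle in grey from left to right for each gene, and bars are medians. Gpc3, Bcl3, Smad7, Fgd1 and Fam89b in the upper panel and Tmem11, Mpped1, Fam124a, Vps9d1, Hs6st2 and Llgl1 in the lower one show no overlap between the drug groups.

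The markers of the S3 segment were strongly present with both drugs, and none was at 0 in every library of a group. Of 17 S3 markers, 4 lay above 0 and 13 below (median -0.11). This lean did not hold without semaglutide replicate 2, when 9 lay above 0 and 8 below (median 0.01), and the median was -0.21 without dapagliflozin replicate 4. Slc7a13, an amino acid transporter that marks S3, averaged 938 TPM with semaglutide and 916 TPM with dapagliflozin. The S1 and S2 markers lay above 0 in 14 of 15 genes (median 0.56), and their summed level spanned 964 to 2586 TPM with semaglutide and 905 to 1936 TPM with dapagliflozin. Their median was 0.08 without semaglutide replicate 2.

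Markers of the glomerulus and the collecting duct also had higher values with semaglutide, all at low levels. All 9 tested podocyte markers lay above 0 (median 0.74), 4 of them at an unadjusted p under 0.05, against 1.59% of all genes on that side. The podocyte median was 0.53 without semaglutide replicate 2 and 0.92 without semaglutide replicate 6. Podxl, podocalyxin, had 20.7, 20.2, 13.6, 19.8 and 18.7 TPM with semaglutide, against 12.02, 10.98, 9.51, 10.5 and 13.5 TPM with dapagliflozin, without overlap. Vehicle libraries reached 9.02 to 25.5 TPM for Podxl and covered both groups. The summed level of the 10 podocyte markers in the table was 35.7 to 79.5 TPM with semaglutide and 19.4 to 36.7 TPM with dapagliflozin. Thick ascending limb markers summed to 1388 to 2758 TPM with semaglutide and 1441 to 1866 TPM with dapagliflozin. Of these, 7 of 9 lay above 0 (median 0.24, and 0.05 without semaglutide replicate 2). Distal tubule sums were 239 to 818 TPM with semaglutide and 204 to 865 TPM with dapagliflozin. Of 7 markers 6 lay above 0 (median 0.34, 0.01 without semaglutide replicate 2). Thin limb markers had 3 above 0 and 6 below (median -0.21, and 0.01 without dapagliflozin replicate 5).

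All 9 intercalated cell markers lay above 0 (median 0.65, and 0.44 without semaglutide replicate 2 and 0.75 without semaglutide replicate 3). Replicate 2 was the highest semaglutide library for 8 of these 9. Of the principal cell markers, 8 of 9 lay above 0 (median 0.35, and 0.20 without semaglutide replicate 2 and 0.60 without semaglutide replicate 6). Summed levels were 21.4 to 60.9 TPM with semaglutide and 14.6 to 18.5 TPM with dapagliflozin for the 9 intercalated cell markers. For the 10 principal cell markers they were 64.6 to 177 TPM with semaglutide and 48.9 to 76.6 TPM with dapagliflozin. Scnn1g, a subunit of the epithelial sodium channel, had 6.05, 3.55, 4.13, 1.69 and 2.95 TPM with semaglutide, against 1.30, 0.632, 0.387, 0.761 and 2.72 TPM with dapagliflozin (log2 difference 1.14, 95% interval 0.39 to 1.88), and the highest value was semaglutide replicate 2. Endothelial markers lay above 0 in 12 of 13 genes (median 0.23) and macrophage markers in 11 of 13 (median 0.23). Without semaglutide replicate 6 the macrophage median was 0.10, with 9 above 0 and 4 below. Of the defining markers, Tyrobp of macrophages was at 0 in all 5 dapagliflozin libraries, and no other marker was at 0 throughout a drug group. Blank cells count as 0 here, so a 0 can mean a level too low to be given. The mean of 103 markers of other cell types was 3.41 ± 0.22 with semaglutide and 3.18 ± 0.20 with dapagliflozin on the log2(TPM + 1) scale (SD, n = 5 each).

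With that mean of other cell types as a covariate, none of the 24 genes named by rule changed sign. Of these 24, Gpc3 stood at 1.16, Smad7 at 0.82 and Hs6st2 at -0.83 in that fit. Among genes named by list, Slc5a10 stood at -0.72, Slc2a5 at -0.59, Khk at -0.47, Tkfc at -0.37 and Tnfrsf10b at -1.01. For the fructose genes among them, the unadjusted p in that limma fit was 0.0156 for Slc5a10, 0.034 for Khk, 0.0716 for Tkfc and 0.111 for Slc2a5. The list medians were -0.28 for polyol and fructose genes, with 2 above 0 and 9 below, and -0.24 for p53 targets, against 0.01 over all genes. Several other lists moved toward 0, with medians of -0.13 for glycolysis, -0.09 for the citric acid cycle, -0.11 for the respiratory chain and -0.19 for heat shock genes. NRF2 targets stood at -0.08, with 10 above 0 and 13 below. The lean of the fatty acid oxidation genes was gone, with 13 above 0 and 12 below (median 0.01), and that of the S3 markers turned round, with 11 above 0 and 6 below (median 0.06). Of the interferon and MHC class I genes, 18 lay above 0 and 9 below (median 0.15), and of the gluconeogenesis genes 6 above and 11 below (median -0.08). The podocyte, thick ascending limb, thin limb, distal tubule, collecting duct, endothelial and macrophage markers are part of the mean. So are the lymphocyte, stroma, erythrocyte and urothelium markers. That fit is therefore no measure of any of these markers. With the S1 and S2 mean as a covariate, medians were -0.16 for the citric acid cycle and -0.39 for polyol and fructose genes. The respiratory chain stood at -0.23, with 2 above 0 and 29 below, and fatty acid oxidation genes at -0.11. The S3 markers stood at 0.03, with 10 above 0 and 7 below. With mitochondrial rRNA percent as a covariate, medians were -0.22 for the respiratory chain and -0.37 for polyol and fructose genes. With library number as a covariate the log2 differences were -1.12 for Slc5a10, 1.39 for Gpc3 and 2.09 for Slc5a2, and the S1 and S2 list had a median of 1.20. The unadjusted p in that limma fit was 0.0162 for Slc5a2 and 0.0371 for Slc9a3. In the same fit 911 of 15424 genes were at an unadjusted p under 0.05, and the smallest adjusted p was 0.70. Library numbers of the drug groups do not overlap, so that fit cannot separate drug from number. With the S1 and S2 mean as a covariate Slc5a2, itself part of that mean, stood at 0.23 and Slc9a3 at 0.20.

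Semaglutide replicates 2 and 4 were the top libraries of that group together in 1851 of 15424 tested genes. The same held for 13 of 15 S1 and S2 markers, 21 of 31 respiratory chain genes, 21 of 31 cytosolic ribosomal protein genes and 5 of 11 polyol and fructose genes. They also had the highest shares of mitochondrial ribosomal RNA in the group, at 43.3 and 52.3%, against 20.3 to 36.8% in the other 3 semaglutide libraries and 29.0 to 43.9% in dapagliflozin libraries. These counts were made after the values had been seen, and the part of segment mix or RNA makeup in the differences above was not tested.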

How the data were processed

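The deposited table holds log10 values of TPM per gene and library, which the authors computed on GRCm38 per the submitters' processing notes. Libraries used 0.5 ng of RNA per sample, DV200 over 30%, in a stranded total RNA kit for very low input, per the labels' protocols. Nothing in the sources used here names the aligner, the annotation used upstream or a scaling between libraries. Blank cells were taken as 0, and 10 was raised to the other values to return to TPM. Genes averaging 1 TPM or more over 52 libraries, 15424 of 19068, were tested on log2(TPM + 1). All 9 groups were fitted as means in limma 3.58.1 (R 4.3.3; empirical Bayes with an intensity trend and robust variances; 43 residual degrees of freedom among samples), with Benjamini-Hochberg adjustment over all tested genes and a threshold of 0.05. Values per library were compared with exact permutation tests. The scripts were tested on simulated data. Positions and symbols came from GENCODE vM21, which matched 19033 identifiers.

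Genes were named by rule, namely the 12 genes each way with the smallest unadjusted p, a log2 size of at least 0.5 and a mean of at least 5 TPM over the 10 libraries (predicted genes left out), up to 3 members of each of 51 lists by unadjusted p, and a fixed set of carriers and enzymes. Other list members are given as examples, and a few genes under the rule are not reported here. The comparison and the lists were chosen with earlier results of these data known. Replicate numbers follow the order of the labels. Alternatives covered the pseudocount, the filter, scaling, weights, covariates and leaving out each library.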

Additional observations from a re-analysis of the deposited data

Results flagged for a closer look

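Dixon's test (critical value 0.71) was run on 352 sets of 5 values, each a gene or a library measure in 1 drug group. Gene levels were tested as log2(TPM + 1) and are given below in TPM. In 21 sets a library was far from the other 4, 9 in semaglutide and 12 in dapagliflozin. Chance alone gives about 1 set in 20.

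In the semaglutide group, replicate 2 was far above the others for Cyp24a1, which breaks down vitamin D (21.04 TPM, against 0.502 to 1.88 TPM in the other 4), for Scnn1b, a sodium channel subunit (13.1 TPM), and for Rrm2 (1.58 TPM). Replicate 4 was lowest for Cdk5rap2 (15.7 TPM) and for Podxl (13.6 TPM) and highest for Rheb, an activator of mTORC1 (44.3 TPM). Replicate 5 was lowest for Flt1, an endothelial VEGF receptor (24.2 TPM). Replicate 6 was lowest for Idh3a of the citric acid cycle (35.2 TPM) and highest for the interferon-induced Gbp4 (15.4 TPM).

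In the dapagliflozin group, replicate 3 was highest for Hspa1b (250.2 TPM, against 11.5 to 17.8 TPM in the other 4), for its partner Bag3 (46.6 TPM) and for the glycolytic enzyme Pgam1 (197 TPM), and lowest for Plk2 (14.98 TPM). Replicate 4 was highest for the interferon-induced Oasl2 (18.002 TPM) and lowest for Slc5a1 (42.8 TPM). Replicate 5 was highest for Angptl4, a PPAR target (28.6 TPM), and for the urea carrier Slc14a2 (5.55 TPM). Replicate 6 was highest for smooth muscle actin, Acta2 (10.6 TPM), and for Ptpro of podocytes (1.24 TPM), and lowest for the histone genes H1f2 (151 TPM) and H2az1 (30.1 TPM).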

How the results depend on the processing

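The count of genes called for semaglutide against dapagliflozin was 0 in both directions under every alternative that was run except 1, and leaving out single libraries gave 0 to 1 lower genes and 0 higher genes. The 1 gene was the predicted gene Gm45011, called without semaglutide replicate 2 (adjusted p 0.0447 in limma). The number of genes at an unadjusted p under 0.05 was 354 of only 11110 tested with a mean minimum of 5 TPM. Among the fits of 15424 genes it ranged from 443 without semaglutide replicate 6 to 1013 with array weights. For semaglutide against vehicle the lower count, 0 in the fit reported above, was 12 with array weights and 2 with library number as a covariate, and 0 to 3 when single libraries were left out (3 without semaglutide replicate 2). Of the gene-by-setting values, 3695 kept their sign and stayed on the same side of the threshold, and 8 turned round. With 0 genes past the threshold in the fit reported above, there was little room to change side. Many of the genes were also named for their small p in these same data. That count is therefore no measure of how firm the differences are. Calb1 turned to 0.0309 and Trac to 0.14 with library number as a covariate. Hba-a1 turned to 0.12 with a pseudocount of 0.1 and ranged from -0.76 to 0.48 with single libraries left out, above 0 without dapagliflozin replicate 6. The ranges were -0.91 to 0.0605 for mt-Atp6, above 0 without semaglutide replicate 5, and -0.60 to 0.12 for Trac, above 0 without dapagliflozin replicate 1. With the other-cell marker mean as a covariate Kcnj1 turned to -0.00252 and Psca to -0.0293. Kcnj1, of the thick ascending limb, and Psca, of the urothelium, are themselves part of that mean, so that fit is no measure of them. The cause was not tested. No paired analysis was possible because library numbers in the labels are all different and the replicate numbers used here only name samples. Read totals are unknown, so counting noise at low TPM cannot be separated from other spread.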

Other observations

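Small nuclear and nucleolar RNAs had some of the largest differences in level, and their values were seen before they were chosen here. Of 34 genes with a difference of over log2 2 in size, 13 were snoRNA genes, 12 of them lower and 1 higher with semaglutide. Of 89 tested snoRNA genes 22 lay above 0, with a median of -0.54 against -0.01 over all genes. Among the 34, 4 were protein-coding genes out of 12530 tested. At an unadjusted p under 0.05 there were 10 of the 34, of which 2 were snoRNA genes, and none passed after adjustment in limma. Snord57, a guide RNA for ribosomal RNA methylation, averaged 4.89 TPM with semaglutide and 40.9 TPM with dapagliflozin (unadjusted p = 0.0243 in limma).

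The gene with the smallest p of all, Ache, which encodes acetylcholinesterase, was too low for the naming rule. It averaged 2.36 ± 1.24 TPM with semaglutide and 0.314 ± 0.234 TPM with dapagliflozin (SD, n = 5 each), with no overlap between the groups and 0.981 ± 0.435 TPM with vehicle (SD, n = 6). Its log2 difference was 1.31 (95% interval 0.69 to 1.92, adjusted p = 0.764 in limma).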
